A study of Caenorhabditis elegans with 2 samples.

Results

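The 9 genes described here, mab-3, mab-23, dmd-3, dmd-5, dmd-6, dmd-7, dmd-8, dmd-9 and dmd-10, encode DM-domain proteins of Caenorhabditis elegans, the family to which the immunoprecipitated factor DMD-4 also belongs. They were chosen by family membership, 9 of 19985 protein-coding genes, and all were found in the annotation. Each was given a window of its gene body with 10 kb upstream and 2 kb downstream, and the regions of the deposited ChIP-seq lists that overlap it by at least 1 bp were collected. The list called from both replicates at once, the pooled list, held 11281 candidate regions, and 26 of them lay in these windows. The windows did not share any region with each other.

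The study measured DMD-4 binding by ChIP-seq in whole L2 larvae of mixed sex. The strain, OP418, carries unc-119(tm4063) III and the transgene wgIs418, from which DMD-4 is made with GFP and FLAG at its C-terminal end. The antibody is recorded by its target, dmd-4, alone. There was 1 group with 2 biological replicates and no second genotype, stage or treatment. Binding in a small number of cells is diluted in whole larvae, the tagged protein comes from a transgene, and all worms were of 1 strain.

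DM-domain proteins bind DNA through an intertwined zinc-containing fold first described in Drosophila Doublesex and worm MAB-3. In many animals the family directs sexual differentiation, and in worms several members act in male-specific structures and neurons. The results below give, for each of the 9 genes named above, where candidate regions lay and how strong they were in each replicate.

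No IDR peak fell in any of the 9 windows, and candidate regions were concentrated at 2 of the genes. An IDR peak is a region that passed the irreproducible discovery rate threshold of the authors. Among all protein-coding genes, 3.1% had an IDR peak in such a window, so that 0 of 9 is near that background. Candidate regions, which include weak ones, occurred at 7 of the 9 genes, against 66% of all protein-coding genes. The members with none in the list of both replicates together were mab-3 and mab-23. dmd-6 had 9 regions and dmd-7 had 7, together 61.5% of the 26. dmd-10 had 4 and dmd-5 had 3, while dmd-3, dmd-8 and dmd-9 had 1 each. With no second condition, none of these counts could be tested between groups, and they are given as descriptions.

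**Figure D1:**
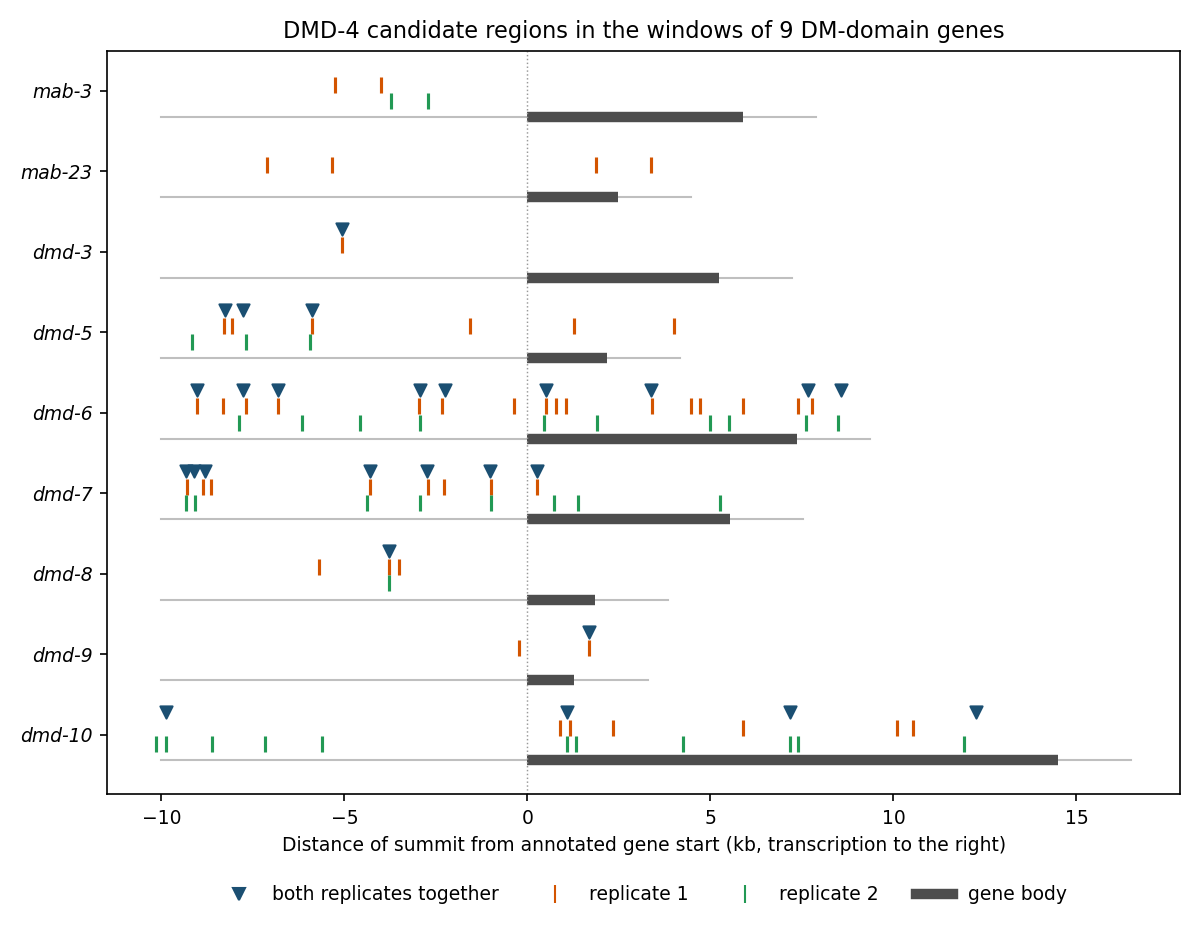
Summits of candidate regions by distance from the annotated gene start (kb), 1 row for each gene. Triangles mark regions called on both replicates together, orange and green ticks those of replicate 1 and of replicate 2, thick bars the gene body and thin lines the whole window; triangles are densest at dmd-6 and dmd-7 and absent at mab-3 and mab-23.

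The sequences at 3 regions, chosen by signal, are shown first. Those of dmd-6 and dmd-7 had the highest signals of the members in the pooled list, and that of dmd-5 overlapped the highest in replicate 2. Each runs from 100 bp before to 100 bp after the summit of the region on the plus strand of ce11, taken from the RefSeq copy of the same assembly. In the first, capitals mark both arms of an inverted repeat. In the others, the single capital is the summit base.

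dmd-6, chrIV:14613559-14613759: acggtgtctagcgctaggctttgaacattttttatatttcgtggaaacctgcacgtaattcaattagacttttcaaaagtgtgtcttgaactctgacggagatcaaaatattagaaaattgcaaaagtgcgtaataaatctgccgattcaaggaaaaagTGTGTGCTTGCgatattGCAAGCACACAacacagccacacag
dmd-7, chrV:6245824-6246024: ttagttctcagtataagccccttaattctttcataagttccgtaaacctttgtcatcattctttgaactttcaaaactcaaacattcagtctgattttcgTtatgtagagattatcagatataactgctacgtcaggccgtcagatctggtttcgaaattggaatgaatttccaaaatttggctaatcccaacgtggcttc
dmd-5, chrII:5781880-5782080: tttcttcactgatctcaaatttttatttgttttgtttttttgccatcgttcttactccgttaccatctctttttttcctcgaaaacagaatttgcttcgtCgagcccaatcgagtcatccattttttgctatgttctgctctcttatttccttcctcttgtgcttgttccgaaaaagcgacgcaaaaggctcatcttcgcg

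The signals of the 26 regions spread over the list and stayed below every IDR peak. Signal is the authors' enrichment value. Its scale is not stated, and it serves only to rank regions within a list. Members' regions had a median of 18.3, the lowest being 13.4 and the highest 32.4, and the whole list had a median of 16.6. The weakest IDR peak had a signal of 46.4. Of the members' regions, 16 lay above the list's median, and 2 ranked among the highest 10% of the list, the one at dmd-6 and the one at dmd-7 printed above. The regions of dmd-6 and dmd-7 had a median of 18.8, and those of the other genes a median of 17.2.

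**Figure D2:**
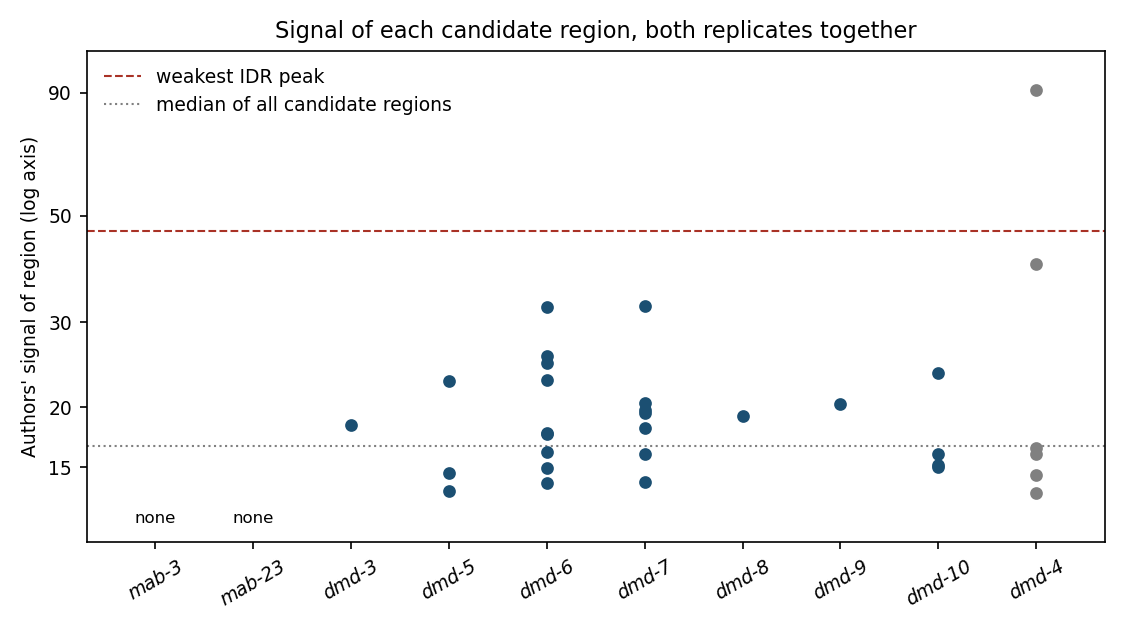
Authors' signal of every candidate region called on both replicates together (log axis) in the windows of the 9 genes and, in grey, of dmd-4. The dashed line is the weakest IDR peak at 46.4 and the dotted line the median of all candidate regions at 16.6; every region of the 9 genes lies below the dashed line, and 1 region of dmd-4 lies above it.

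mab-3 and mab-23 had regions only in the replicates' own lists and none in the pooled list. mab-3 (WBGene00003100, chrII:9732137-9738035, plus strand) represses yolk protein genes in the male intestine and promotes the sensory rays of the male tail. Its window of 17.9 kb held 2 candidate regions in replicate 1, with signals of 7.89 and 8.17, and 2 in replicate 2, with signals of 6.38 and 12.3. The strongest, in replicate 2, had its summit 2709 bp upstream of the gene start at chrII:9729253-9729602. It ranked 2608 of 18240 in that list and had no counterpart in replicate 1. The region with a signal of 8.17 in replicate 1 and the one with 6.38 in replicate 2 overlapped, with summits 4007 and 3727 bp upstream, but the pooled list has no region there. Whether the authors filtered the pooled list is not stated, so that the lack of a pooled region need not mean that none was called. Such a lack was not rare. Among all regions of a replicate that overlap one of the other, 17.2% in replicate 1 and 17.4% in replicate 2 overlapped no pooled region.

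mab-23 (WBGene00003114, chrV:10633058-10635525, plus strand) acts in male neurons and muscles of mating. It had 4 candidate regions in replicate 1 and none in replicate 2. The signals in replicate 1 were 7.01, 7.58, 8.32 and 12.03. The strongest, at chrV:10636262-10636605, lay downstream of mab-23 in an intron of kvs-2, a potassium channel gene, 412 bp inside its start. Replicate 1 thus gave regions at each of the 9 genes, where 80.6% of all protein-coding genes had one. Replicate 2 gave them at 6 of the 9, against 83.5% of all protein-coding genes, and missed mab-23, dmd-3 and dmd-9.

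dmd-3 (WBGene00012832, chrV:19650025-19655251, minus strand), which shapes the male tail tip together with mab-3, had 1 region, at chrV:19660136-19660485. Its pooled signal was 18.4, rank 4053 of 11281. The summit lay 5060 bp upstream, at the same base in replicate 1, where the signal was 12.6. Replicate 2 had no region in this window.

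dmd-5 (WBGene00017326, chrII:5772054-5774220, minus strand) acts in the male-specific wiring of an interneuron. Its 3 regions all lay more than 5 kb upstream and nearer to the start of K05F1.6 than to that of dmd-5. The strongest, at chrII:5781805-5782154, had a pooled signal of 22.6, rank 1914, with its summit 7760 bp upstream of dmd-5 and 540 bp upstream of K05F1.6. It overlapped linc-44, a long noncoding RNA gene. Replicate 1 had an overlapping region of 17.8. Replicate 2 had one of 26.9, which ranked 186 and was the highest of the 9 genes in that replicate. The 2 replicate regions did not overlap each other, and their summits lay 379 bp apart. The region of replicate 1 also overlapped the neighbouring pooled region, 38 bp upstream of K05F1.6. The weakest of the 26 regions was also at dmd-5, at chrII:5779929-5780278, with a pooled signal of 13.4, and 7.10 in replicate 1 and 8.76 in replicate 2.

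dmd-6 (WBGene00007058, chrIV:14616603-14623963, plus strand) had the most regions. Only 0.851% of protein-coding genes had at least 9 in such a window, and 1.17% had at least as many per kb. The window of dmd-6 held 0.465 regions per kb, against 0.196 in the 500 kb on each side of it and 0.112 over the nuclear genome. No other protein-coding gene lies in this window. By pooled signal the regions ran from 13.9 to 32.2. The strongest, at chrIV:14613484-14613833, ranked 579 of 11281 and had its summit 2944 bp upstream of the gene start. Replicate 1 reached 20.5 there and replicate 2 reached 17.6, ranks 522 and 693 of their lists, with summits 36 bp apart. Its sequence, printed above, held the inverted repeat from 59 to 86 bp after the summit, with arms of 11 bases and a spacer of 6.

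Further regions of dmd-6 lay upstream and inside the gene. The second by signal, at chrIV:14609622-14609971, reached 25.5 and lay 6806 bp upstream; replicate 1 had a signal of 12.8 there and replicate 2 had no overlapping region. The next, at chrIV:14616950-14617299, reached 24.8 and had its summit in an intron, 522 bp after the start. The strongest overlapping region had 12.1 in replicate 1 and 16.9 in replicate 2, with summits 333 bp apart, and a further region of replicate 1, with 11.6, had its summit 523 bp after the start, 74 bp from that of replicate 2. After it came the one at chrIV:14624085-14624434, which lay past the 3′ end. Its pooled signal was 22.8, with 11.3 in replicate 1 and 9.65 in replicate 2, and those replicate summits lay 216 bp apart. Altogether 4 of the 9 regions overlapped a region of each replicate. An intronic region of replicate 1, at chrIV:14621143-14621486 with a signal of 7.74, overlapped one of replicate 2, at chrIV:14621416-14621765 with 17.2. Their summits lay 4712 and 4988 bp after the gene start, and the pooled list has no region there.

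dmd-7 (WBGene00019521, chrV:6246931-6252458, plus strand) had the single strongest region of the 9 genes. It spanned chrV:6245749-6246098, with a pooled signal of 32.4, rank 560 of 11281, and its summit lay 1007 bp upstream of the gene start. Replicate 1 gave 14.9 and replicate 2 gave 16.8, and the summits lay 4 bp apart, the closest of any region called here in both. RefSeq places the start of dmd-7 further downstream, so that the same summit lies 3248 bp upstream of that start. The second region by signal, at chrV:6244012-6244361, reached 20.4 and lay 2744 bp upstream. There replicate 1 reached 14.1 and replicate 2 reached 7.59, with summits 208 bp apart. A further upstream region, at chrV:6242447-6242796, had a pooled signal of 19.5, and 10.4 in replicate 1 and 8.70 in replicate 2.

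The other dmd-7 regions were placed less clearly with this gene. At the far end of the window, 3 regions overlapped in a chain, from chrV:6237439 to chrV:6238296, with pooled signals of 19.7, 14.0 and 18.1, at or just past the 3′ end of the neighbouring gene K08B12.3. The last, at chrV:6247015-6247364, lay in the first exon of the longer transcript with a pooled signal of 16.0; replicate 1 had a signal of 13.8 there and replicate 2 had none. Of the 7 regions, 6 overlapped a region of each replicate. Of protein-coding genes, 2.31% had at least 7 regions in such a window. The count of 7 rests on the Ensembl start of dmd-7. From the RefSeq start, the 3 chained regions had summits 11050 to 11558 bp upstream and lay outside a window of 10 kb upstream. Merged where they overlap, the 7 regions made 5. The dmd-7 window held 0.399 regions per kb, against 0.109 in the 500 kb on each side of it.

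**Figure D3:**
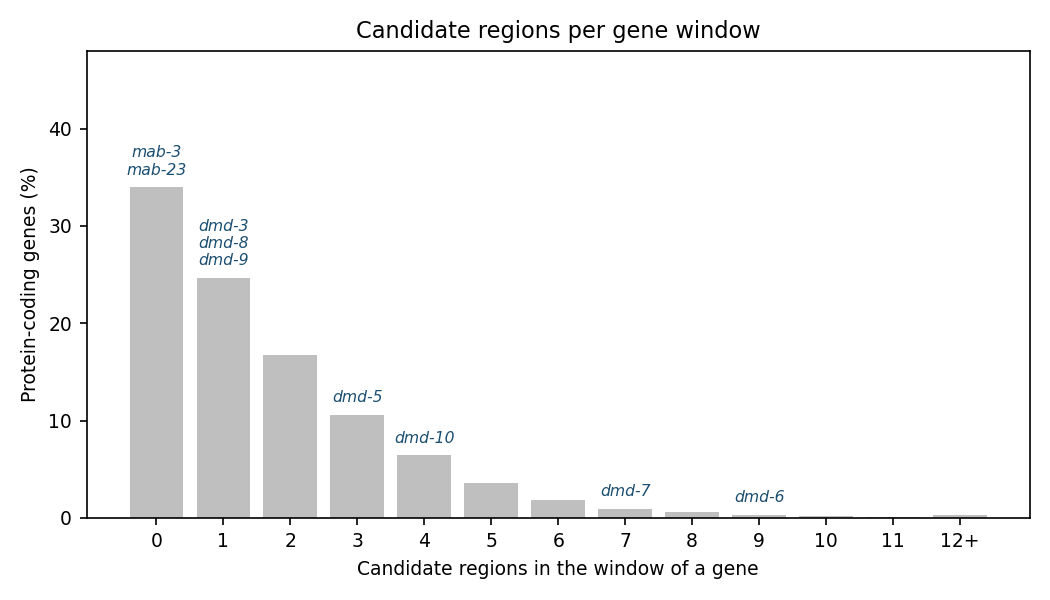
Share of all 19985 protein-coding genes (%) by the number of candidate regions in the window, with the 9 DM-domain genes written above their bars. With Ensembl gene starts, dmd-7 with 7 and dmd-6 with 9 stand in the upper tail, and the other genes stand between 0 and 4.

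dmd-8 (WBGene00020708, chrV:334601-336450, minus strand) had 1 region, at chrV:340054-340403, 3779 bp upstream. Its pooled signal was 19.2, with 9.11 in replicate 1 and 7.01 in replicate 2, and those replicate summits lay 266 bp apart. A further overlapping region of replicate 1, with 8.98, had its summit 3778 bp upstream. The start site nearer to the pooled summit was that of wago-10, an Argonaute gene. dmd-9 (WBGene00022060, chrIV:3253261-3254543, minus strand) had 1 region just past its 3′ end, at chrIV:3252683-3253032. The pooled signal was 20.3 and that of replicate 1 was 10.3, and replicate 2 had no region in the window. The start of Y67D8A.2 was nearer to this summit than that of dmd-9.

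dmd-10 (WBGene00007929, chrV:13222116-13236607, minus strand), which acts in avoidance behaviour driven by the ASH sensory neuron, is the longest of these genes. Of its 4 regions 3 were intronic and the other lay in an exon of odr-3, an olfactory G protein gene, at the edge of the window. The strongest, at chrV:13235341-13235690, had a pooled signal of 23.6, rank 1683, and its summit lay 1091 bp after the start. Replicate 1 gave 10.1 and replicate 2 gave 10.6, with summits 63 bp apart. The other 3 overlapped regions of replicate 2 only, and their pooled signals were 15.15, 15.02 and 16.01.

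Over the 9 windows, which cover 154 kb, the list held 0.169 regions per kb, against 0.112 per kb of the nuclear genome and 0.108 per kb over the windows of all protein-coding genes. Without dmd-6 and dmd-7, left out because they had the most regions, the density was 0.0852 per kb. Leaving out the highest genes lowers the density by construction, so that this value cannot be set against the genome's. The median density over the windows of single protein-coding genes was 0.0739 per kb. Most summits were far from the start of the member gene, with a median distance of 4684.5 bp to the nearest annotated start. Only 3 of 26 lay within 1 kb of one, namely 2 at dmd-6 and 1 at dmd-7. Upstream of the gene lay 17, and 6 lay inside it. For 10 of the 26 the nearest coding start belonged to another gene.

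The replicates shared part of these regions. Of the 26, 14 (53.8%) overlapped a region of each replicate, against 39.2% of all candidate regions of the pooled list, and 10 of the 14 belonged to dmd-6 and dmd-7. A further 8 overlapped a region of replicate 1 alone and 4 one of replicate 2 alone. Where several regions of a replicate overlapped a pooled region, the signals given here are those of the strongest. Among the 14, the strongest regions of the 2 replicates had summits within 100 bp of each other at 6, with a median gap of 189.5 bp. The nearest pair of replicate summits lay within 100 bp at 9 of the 14, with a median gap of 68.5 bp. Neighbouring pooled regions can be matched to the same replicate region, as at the 3 overlapping regions near K08B12.3.

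**Figure D4:**
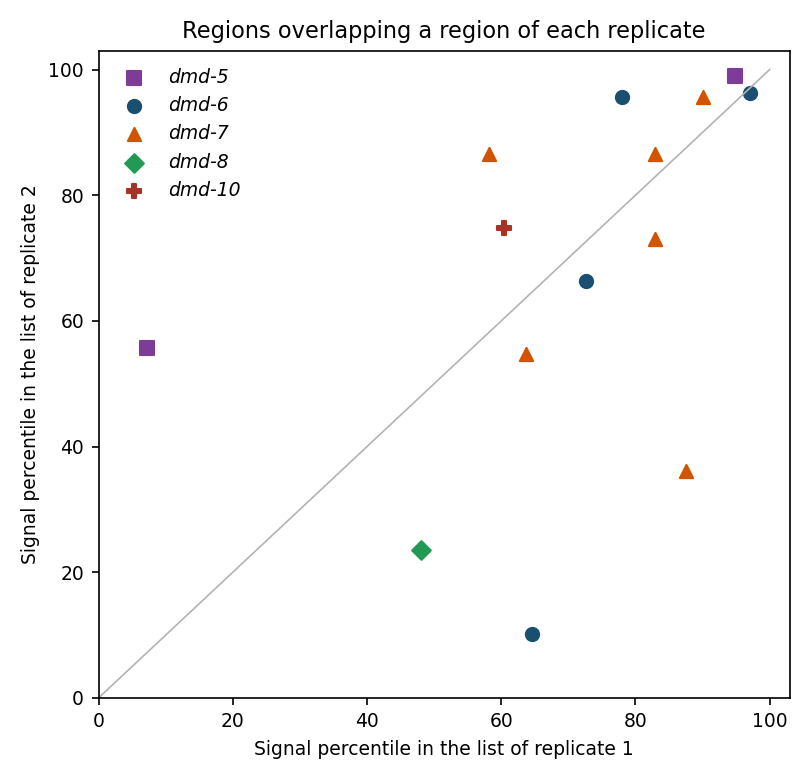
Signal percentile in the list of replicate 1 (x axis) and of replicate 2 (y axis) for the 14 regions of the 9 genes that overlap a region of each, by the strongest overlapping region, with symbols for genes and a line of equal percentiles. The leading regions of dmd-5, dmd-6 and dmd-7 sit at the upper right, and the rest scatter on both sides of the line. At that of dmd-5 the 2 replicate regions do not overlap each other, and their summits lie 379 bp apart.

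Sequences known to bind DM-domain proteins were about as frequent here as in the whole list, as far as 26 regions can show. The family core, ACAATGT or ACATTGT, was found within 100 bp of the summit in 0 of 26, searching both strands, where 3.35% of all candidate regions held it. The shorter core TGTTGC, known from MAB-3 sites, was found in 2 of 26, against 7.77% of all candidate regions. One match lay 20 bp before the summit of the dmd-6 region past its 3′ end and the other 80 bp before that of an intronic dmd-10 region, both on the minus strand. They are shown here with 12 bases on each side and the core in capitals, since they are the only matches among the members.

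dmd-6, chrIV:14624225-14624254, minus strand: ttgtgaaacattTGTTGCaggatgcgaatc
dmd-10, chrV:13229336-13229365, minus strand: tgttttattcggTGTTGCaggggcgtttca

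The inverted repeat at the leading dmd-6 region was noticed on reading its sequence, and the search was set up afterwards. A perfect inverted repeat with arms of at least 10 bases and a spacer of at most 20 was found within 100 bp of the summit in 3 of 26 members' regions and in 5.18% of all candidate regions. GC content of the same sequence had a median of 33.1% in the members' regions, with a range from 22.9% to 44.3%, and of 29.9% in all candidate regions.

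The dmd-6 gene lies in a stretch of chromosome IV that is rich in genes of piRNAs, the small RNAs that guide Piwi proteins against foreign sequence in the germline. Its window held 62 annotated piRNA genes, and the other 8 windows held none. Many worm piRNA genes are preceded by a short promoter motif with the core CTGTTTC. This core, looked for after the sequences had been read, was present in 5 of the 9 dmd-6 regions, 100 bp or less from the summit, in 1 of the 17 regions of the other 8 genes, and in 5.53% of all candidate regions. It was also frequent around the gene. It occurred in 18 of 73 tiles of the same length (24.7%) from the rest of the dmd-6 window and in 70 of 196 candidate regions (35.7%) within 500 kb on each side. The matches at dmd-6 are printed on their own strand, with 12 bases on each side and the core in capitals, so that their flanks can be compared.

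dmd-6, chrIV:14607639-14607669, plus strand: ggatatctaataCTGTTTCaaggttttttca
dmd-6, chrIV:14608737-14608767, plus strand: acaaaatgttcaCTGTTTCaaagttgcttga
dmd-6, chrIV:14608906-14608936, minus strand: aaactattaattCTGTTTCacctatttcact
dmd-6, chrIV:14617112-14617142, plus strand: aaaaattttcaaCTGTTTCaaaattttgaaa
dmd-6, chrIV:14624161-14624191, plus strand: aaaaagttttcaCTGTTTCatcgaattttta
dmd-6, chrIV:14625161-14625191, plus strand: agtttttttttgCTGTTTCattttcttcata

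The region with the highest signal at dmd-6 and the second by signal held no such core. The 500 kb on each side were also denser in candidate regions than the genome, as given above, and the part of this in the count at dmd-6 was not tested.

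**Figure D5:**
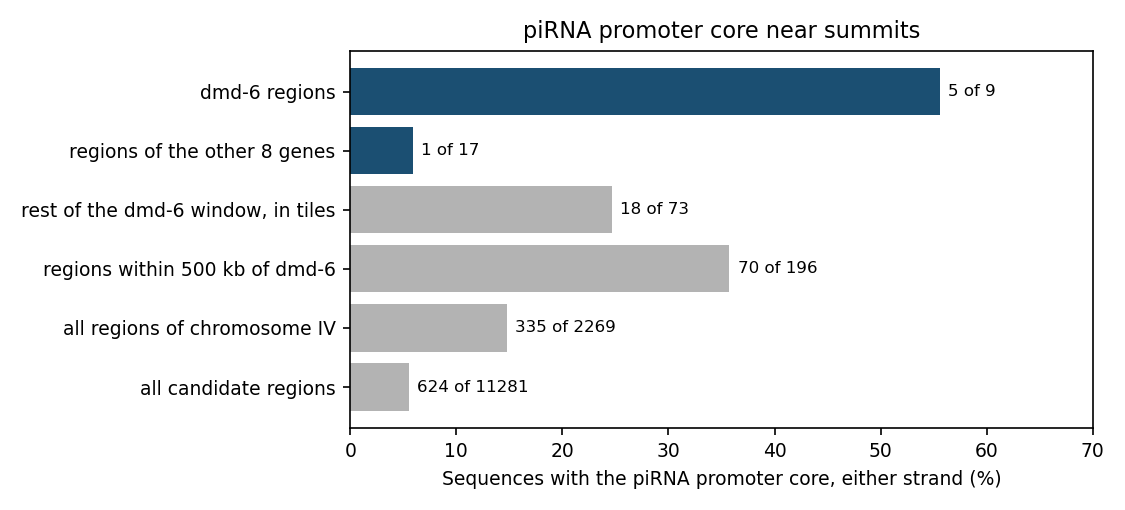
Share (%) of sequences, 100 bp on each side of a summit or tiles of that length, that hold the piRNA promoter core on either strand, for regions of dmd-6, regions of the other 8 genes, the rest of the dmd-6 window in tiles, candidate regions within 500 kb, those of chromosome IV and all candidate regions. Counts are written beside the bars; dmd-6 regions have the highest share at 5 of 9, and the rest of its window and its neighbourhood lie between that and the whole list.

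Known partners of these genes were looked at in the same windows. They were tra-1, the terminal regulator of somatic sex that acts upstream of mab-3 and dmd-3, the mab-3 targets vit-2, lin-32 and ref-1, the genes of tail tip morphogenesis and its timing eff-1, lin-41, let-7, lep-2, lin-28 and lin-29, and the sex determination genes her-1 and fem-3. None of the 12 had an IDR peak, where 3.1% of all protein-coding genes had one. A candidate region was present at 10 of them, against 66% of all protein-coding genes. let-7 encodes a microRNA and so lies outside these shares of protein-coding genes. The 12 partners had 22 regions in all, or 0.0985 per kb, against 0.112 per kb of the nuclear genome. Of the 22, 12 overlapped a region of each replicate, where 39.2% of all candidate regions did. ref-1 and her-1 had none. The strongest was near let-7, with a pooled signal of 32.9 and rank 536, its summit 1835 bp upstream. lin-32, a proneural gene of the male rays, followed with a signal of 25.97, 841 bp upstream. tra-1 had 4 regions with a highest signal of 17.9.

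dmd-4 itself had an intronic region and one overlapping it that were both stronger than any region of the 9 relatives, and 4 weaker ones. Its window, treated in the same way, held 6 candidate regions, 0.363 per kb, of which 1 was an IDR peak. That intronic region had a signal of 91.0 and rank 69, against a highest signal of 32.4 among the 9 relatives. A region overlapping it had 39.6, and the other 4 had 13.2, 16.0, 14.5 and 16.5, below the relatives' median of 18.3. The transgene encodes the tagged DMD-4, and reads from it and from the native dmd-4 locus cannot be told apart here.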

How the data were processed

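Candidate regions came from the alignment of each replicate and of both, with 1 further file that the control-normalized tracks also use, and the IDR list from those 3 lists, per the deposited descriptions. No source names the aligner, caller or IDR threshold. The deposited signal is the authors' enrichment value of a region. The summit is the deposited offset from the region's start; in the pooled list 99.7% of regions were 350 bp wide. Only ce11 lists were used, since no ce10 gene models were at hand. Coordinates are 1-based in ce11, the same assembly as WBcel235. Genes came from Ensembl release 115, with let-7 named from RefSeq at the same coordinates, and sequence from RefSeq. Depth is unknown, as no reads were given.

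Members, lists and rules were chosen with earlier results of these data known. All 9 members are named, with each member's strongest region, the 10 strongest regions, the nearest start sites and 12 partners. The searches for CTGTTTC and inverted repeats were chosen after sequences were read. Counting and matching were tested on simulated data. No test was made, because there is 1 group. Python 3.11.15, numpy 2.4.6, pandas 2.3.3 and matplotlib 3.10.9 were used.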

Additional observations from a re-analysis of the deposited data

How the results depend on the processing

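No paired analysis was possible because there is 1 group. The absence of IDR peaks held in each other window tried. An alternative added after seeing the data took the 212 strongest regions of a single replicate: this gave 1 gene, dmd-5, from replicate 2 and 0 from replicate 1. The count of 26 regions followed the window. It was 15 with 5 kb upstream and 1 kb downstream, 6 in the gene body alone and 55 with 20 kb upstream, and 16 among regions above the list's median signal. Single replicates gave 35 to 48 regions. Genes with a region numbered 3 for the gene body alone. The median signal was 19.5, 15.6, 17.3 and 20.4 in the 4 settings that moved it within the pooled list, in the order above, and 9.35 to 10.2 in single replicates, whose scale differs. With replicate summits within 100 bp of the pooled one, 9 regions matched both replicates instead of 14. Regions with either core sequence numbered 1 within 50 bp and 7 within 250 bp of the summit, against 2 within 100 bp, and 6 in each single replicate. Fewer bases or regions searched account by construction for the smaller counts. The windows that gave 55 regions and 7 core matches contain the main ones, so that these counts could not fall below the main counts. For the rest the cause was not tested. IDR peaks could not be rebuilt without a replicate.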

Other observations

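A region just upstream of dmd-4 was among the strongest of each replicate, rank 90 in replicate 1 and 60 in replicate 2, and had no counterpart in the pooled list. In replicate 1 a region at chrX:14861973-14862316 had a signal of 42.5, and in replicate 2 one at chrX:14861958-14862307 had a signal of 51.6, with summits 293 and 281 bp upstream of the gene start. Whether the authors filtered the pooled list is not stated. Among the 212 strongest regions of each replicate such a lack was rare: of those that overlap a region of the other replicate, 2 of 200 in replicate 1 and 2 of 197 in replicate 2 overlapped no pooled region. Over all ranks it was 17.2% in replicate 1 and 17.4% in replicate 2. In the windows of the 9 DM-domain genes it concerned 2 of 18 such regions of replicate 1 and 2 of 15 of replicate 2, 1 pair at mab-3 and 1 at dmd-6. The signals of these 4 regions were between 6.38 and 17.2.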
